A study of Homo sapiens with 2 samples.

Results

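The 18S and 5.8S rRNA stretches of the human rDNA repeat were examined here, as 10-base bins of a PAR-CLIP read profile. The members are all bins whose label in both deposited rDNA profiles begins with 18S or 5-8S, which gave 201 bins of the 4482 bins present in both files. Of these, 186 bins belong to 18S (bases 3661 to 5520 of the repeat) and 15 belong to 5.8S (bases 6601 to 6750). The rule used labels only and no read count, but it was chosen with earlier results of these data known.

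PAR-CLIP crosslinks RNA to the protein that touches it in living cells and purifies the pair together. The cells were HEK293T, an established line from human embryonic kidney, and they carried either SFB-Ku80, which is Ku80 with FLAG and SBP tags, or the SFB empty vector. The growth protocol in the labels calls the expression stable, whereas the study's methods describe the Ku80 construct as one for transient use, and which held for these libraries is not settled here. Cells of both groups received 0.1 mM 6SG overnight, a photoreactive guanosine analogue, and 0.4 J per square centimetre of UV at 365 nm. RNA of both was purified over streptavidin and then Flag resin. The labels do not give the promoter of the transgene. Only 1 library stood for each condition. No difference below therefore has a replicate check, and no p-value is given.

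Ribosomal RNA is made in the nucleolus as one long transcript by RNA polymerase I. In that transcript the 18S, 5.8S and 28S sequences are separated by internal transcribed spacers, ITS1 before 5.8S and ITS2 after it, and flanked by external ones, the 5′ETS and the 3′ETS. Endonucleases and exonucleases remove the spacers. The 18S rRNA becomes the RNA of the small ribosomal subunit, where the mRNA is decoded, while 5.8S pairs with 28S in the large subunit. Ku80 forms a ring with Ku70 that is best known for holding DNA ends in double-strand break repair, and the study asked which RNA this complex touches in the nucleolus. Reads on 18S or 5.8S may come from mature rRNA or from a precursor, and reads in the adjoining spacers come from a precursor or from a spacer cut out of one.

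The SFB empty vector library had 29863974 read pairs and the SFB-Ku80 library 22173753. Of these pairs, 21.5% and 47.1% were counted as unmapped in the alignment to the genome. Each bin value is the number of reads that BLAST aligned over that bin, so one read counts in all the bins it covers and neighbouring bins are not independent. Values below are reads per bin per 1000000 read pairs of the library (RPM), and a ratio is SFB-Ku80 over SFB empty vector on that scale. The study's own measure of rRNA enrichment also took in the amount of RNA recovered, which the ratios here leave out.

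The 18S and 5.8S signals were both higher in SFB-Ku80. Over 18S, the mean bin held 4599 RPM with the empty vector and 12815 with SFB-Ku80, a ratio of 2.79. Over 5.8S, the means were 4067 and 14464, a ratio of 3.56. Thus 5.8S lay below 18S in the vector library, at 0.884 of its mean bin, and above it in the SFB-Ku80 library, at 1.13. The quotient of the ratios of 5.8S and 18S was 1.28 and does not depend on library size. These sums carry no counting interval, because a read is counted in several bins.

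Every one of the 201 bins was at least 2-fold higher in SFB-Ku80. The background was 46.4% of the 2176 bins of the whole repeat that held at least 10 reads over both libraries, and 71.8% of such bins within 45S. These shares include the 201 bins themselves. Passing 2-fold was not particular to them, as all 366 bins of the 5′ETS, 108 of ITS1 and 117 of ITS2 did so. In the 3′ETS 36 of 37 bins passed, and in 28S 130 of 505. At 3-fold, 47 of the 201 bins passed, or 23.4%, beside 33.9% of the bins of the whole repeat and 51.3% of those of 45S. Those 47 were all 15 bins of 5.8S and 32 bins of 18S. The median log2 ratio of the 201 bins was 1.49, beside 0.92 over the whole repeat and 1.70 over 45S.

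The count at 2-fold depends on the denominator. Dividing by the rDNA signal of each library, of which these bins are a large part, in place of its read pairs left 2 of the 201 bins past 2-fold, and the ratios became 1.22 for 18S and 1.55 for 5.8S. Dividing by mapped pairs, which were a smaller share of the pairs in SFB-Ku80, raised them to 4.14 and 5.28. How many reads of these bins lie among the unmapped pairs is not known here. Whether the different shares of unmapped pairs bear on the ratios was not tested beyond these denominators.

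Measured against 28S, the other large mature rRNA, 18S and 5.8S made up more of the profile in SFB-Ku80. The mean bin of 18S was 1.31 times that of 28S in SFB empty vector and 1.99 times in SFB-Ku80. For 5.8S these values were 1.16 and 2.25. The 28S region itself had a ratio of 1.83. Its single bins were less even, with ratios from 0.65 to 5.00 and a median of 1.82, so part of 28S overlapped 18S and 5.8S. As a share of the 45S signal, 18S was 31.1% with the empty vector and 37.8% with SFB-Ku80, 5.8S was 2.21% and 3.44%, and 28S was 64.4% and 51.6%. Each transcribed spacer had a higher ratio than 18S and 5.8S, from 4.87 for the 3′ETS to 7.35 for the 5′ETS. The 5′ETS share of the 45S signal was 1.56% with the empty vector and 5.02% with SFB-Ku80. These are comparisons of 2 libraries with no test.

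**Figure D1:**
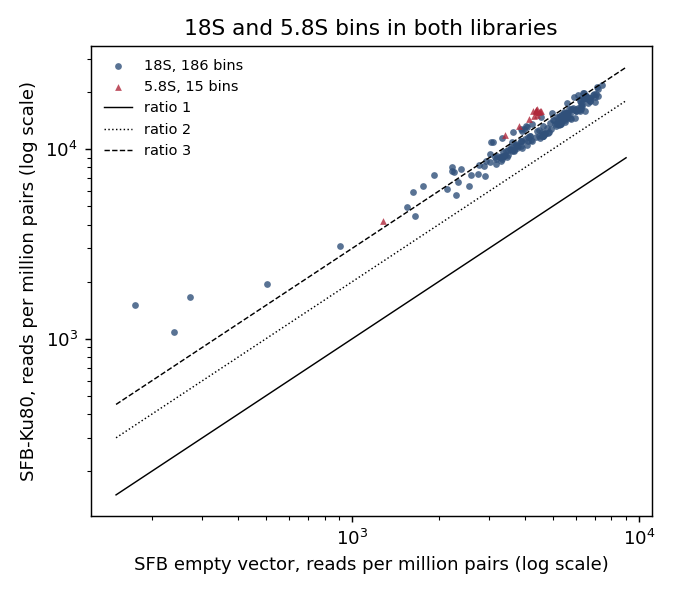
Signal of the 186 bins of 18S and the 15 bins of 5.8S in SFB empty vector (x axis) and SFB-Ku80 (y axis), in RPM on log axes, with lines at ratios of 1, 2 and 3. All bins lie above the line of ratio 2, the 15 bins of 5.8S lie above that of ratio 3, and the few 18S bins of low signal lie farthest above it.

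Along 18S the profile had the same outline in both libraries. It rose and fell through 7 local maxima, each taken as the highest bin within 10 bins on either side, and all 7 fell in the same bin in both libraries. Counted from the labelled start of 18S, they lay at bases 111 to 120, 341 to 350, 551 to 560, 791 to 800, 1051 to 1060, 1401 to 1410 and 1691 to 1700. The highest bin of either library was the one at 1401 to 1410. It held 220977 reads with the empty vector and 482492 with SFB-Ku80, which is 7399 and 21760 RPM and a ratio of 2.94 (95% counting interval 2.93 to 2.96). The ratios of the 7 maxima ran from 2.53 to 2.94.

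The minima between them were shared as well. All 8 bins that were the lowest within 10 bins in SFB-Ku80, the end bins included, were so in SFB empty vector. The deepest dips away from the ends lay at bases 661 to 670 and 1241 to 1250. The former held 1659 RPM with the empty vector and 4455 with SFB-Ku80, a ratio of 2.69. The latter held 1623 and 5938, a ratio of 3.66. Both dips thus had almost the same depth in the vector library and differed in SFB-Ku80, where the one at 661 to 670 was the deeper. Across the 186 bins of 18S, the log2 signals of the libraries had a Pearson r of 0.978, given as a description because neighbouring bins share reads.

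**Figure D2:**
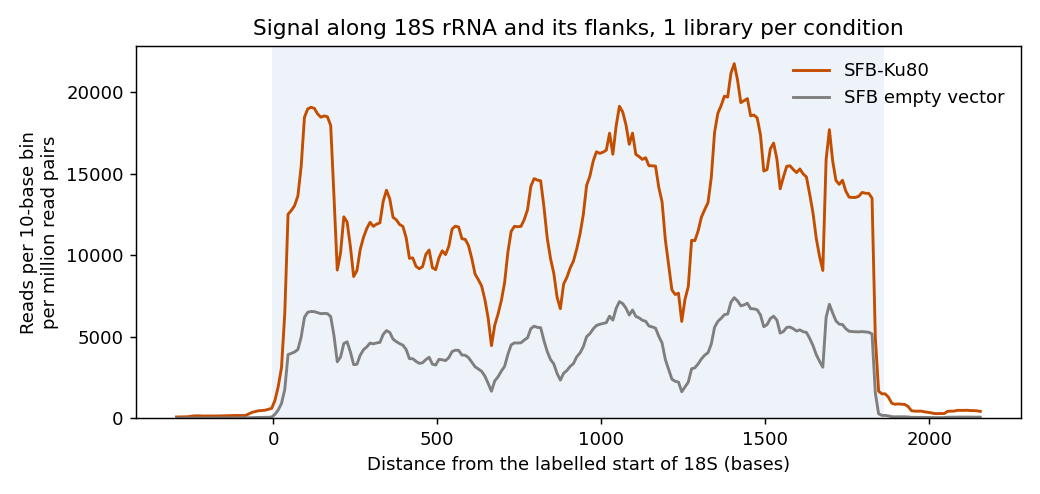
Reads per 10-base bin per 1000000 read pairs (RPM) along 18S (shaded) and 300 bases on either side, against distance in bases from the labelled start of 18S, for SFB-Ku80 and SFB empty vector with 1 library each. The 7 maxima stand at the same places in both lines, the highest at 21760 and 7399 RPM, and both lines fall close to 0 beyond the shaded region.

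The ratio was even over most of 18S. In 171 of the 186 bins the ratio lay between 2.5 and 3.5, and the middle 80% of bins ran from 2.56 to 3.24. Cut into 6 windows of 310 bases, 18S had ratios from 2.67 (bases 621 to 930) to 2.97 (bases 1241 to 1550), so the highest window was 1.11 times the lowest. The signal itself varied far more, with a 4.56-fold span between the highest and lowest bins of SFB empty vector and 4.88-fold in SFB-Ku80 after leaving out the 100 bases at each end. Among single bins the counting interval of the ratio had a half-width of at most 2.93% of the ratio, but it covers counting error only and treats reads as independent molecules, which PCR copies are not.

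The 32 bins of 18S with a ratio of at least 3 formed 3 unbroken runs. One covered the first 90 bases, one the bases 1191 to 1390 and one the last 30 bases. The inner run held 20 bins, with means of 3761 RPM with the empty vector and 12310 with SFB-Ku80. Its ratio climbed from 3.04 in its first bin to 3.79 at bases 1251 to 1260 (counting interval 3.76 to 3.83) and came down to 3.08 in its last. The run therefore spans the dip at 1241 to 1250 and the rise towards the highest bin of the profile.

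The lowest ratios lay close to the 3′ end of 18S. The 11 bins from 1681 to 1790 ranged from 2.44 to 2.57, and the lowest of all, at 1711 to 1720, held 5977 RPM with the empty vector and 14590 with SFB-Ku80 (ratio 2.44, counting interval 2.43 to 2.46). The start of this run was a sharp step in both libraries. From the bin at 1671 to 1680 to the next, the signal rose 1.98-fold with the empty vector and 1.75-fold with SFB-Ku80. The ratio dropped over the same step from 2.90 to 2.56. A further low stretch lay at 671 to 700, just after the dip, with ratios from 2.49 to 2.51.

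**Figure D3:**
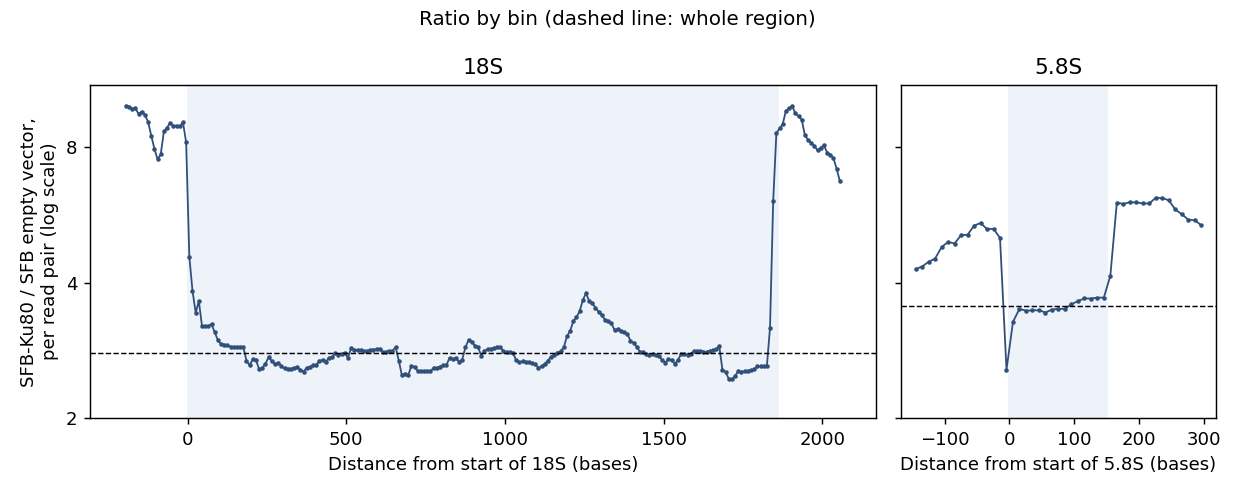
Ratio of SFB-Ku80 to SFB empty vector per read pair on a log axis for each 10-base bin of 18S with 200 bases on either side (left) and of 5.8S with 150 bases on either side (right), against distance in bases from the labelled start. Shading marks the mature region and the dashed line its overall ratio, 2.79 for 18S and 3.56 for 5.8S. The ratio is near the dashed line over most of 18S and rises to 3.79 near base 1251. It is higher still at the ends, at 4.57 in the first 18S bin and 8.59 in the last. In most spacer bins beyond the borders it lies above the dashed line.

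At the 3′ border of 18S, the signal fell before the label ended. The bin at 1821 to 1830 still held 5175 RPM with the empty vector and 13503 with SFB-Ku80. The next bin held 1554 and 4939, and the last, at 1851 to 1860, held 174 and 1498. The first bin of ITS1 had nearly the same values, 170 and 1498. In reads, the last 18S bin and the first ITS1 bin held 5209 and 5082 in SFB empty vector, and 33226 and 33225 in SFB-Ku80. The ratio of the last 18S bin was 8.59 (counting interval 8.34 to 8.85), beside 8.81 in that ITS1 bin. The last 10 bases labelled 18S were therefore close to the adjoining ITS1 bin in level and in ratio. Neighbouring bins can share most of their reads, so this closeness does not show where mature 18S ends. The bin before them, at 1841 to 1850, lay between with 273 and 1657 RPM and a ratio of 6.08. RefSeq on GRCh38.p14 gives a length of 1869 bases for the RNA18SN genes, whereas the labelled bins span 1860, and the rDNA sequence behind the labels is not given in the sources used here.

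The 5′ border was a ramp. The first bin of 18S held 239 RPM with the empty vector and 1091 with SFB-Ku80, a ratio of 4.57 (counting interval 4.45 to 4.69), and the last bin of the 5′ETS held 73.9 and 605, a ratio of 8.20. The signal reached 3905 and 12517 by bases 41 to 50, where the ratio was 3.21. Leaving out the last 3 bins of 18S changed the ratio of the whole region only from 2.787 to 2.784.

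Averaged over 100 bases at the ends of 18S and 50 bases at those of 5.8S, the drop into spacer was less steep in SFB-Ku80 at all 4 borders. In the 100 bases before 18S, the mean signal was 1.47% of that in the first 100 bases of 18S with the empty vector and 4.00% with SFB-Ku80. In the 100 bases after 18S, it was 2.44% and 8.46% of that in the last 100. In the 50 bases before 5.8S it was 2.40% and 2.67%, and in the 50 bases after it 13.1% and 18.9%. Over these windows, which differ in length, the largest change was at the 3′ end of 18S and the smallest at the 5′ end of 5.8S. At the latter, the bins that meet at the border went the other way, with ratios of 2.56 in ITS1 and 3.27 in 5.8S. After subtracting the mean of the flanks of 100 or 50 bases from each region, a calculation chosen after seeing the data, the ratio was 2.69 for 18S and 3.42 for 5.8S.

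**Figure D4:**
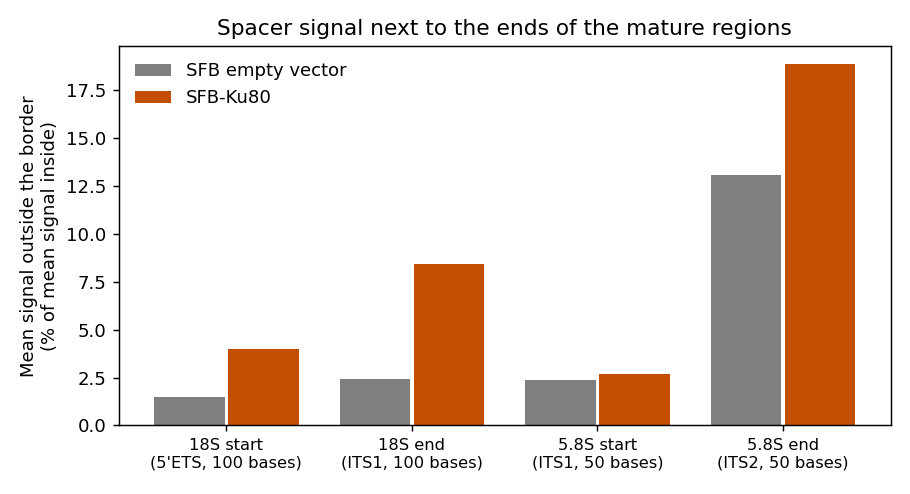
Mean signal outside each border as a percentage of the mean signal inside it, over 100 bases at the ends of 18S and 50 bases at the ends of 5.8S, in SFB empty vector and SFB-Ku80 with 1 library each. The SFB-Ku80 bar is the higher at each border, from 2.67% against 2.40% at the start of 5.8S to 8.46% against 2.44% at the end of 18S.

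The 5.8S signal was a plateau after its first bin, over 150 labelled bases against 1860 of 18S. Its first bin held 1280 RPM with the empty vector and 4192 with SFB-Ku80, the lowest of the 15 bins in both. Over the other 14 bins the highest exceeded the lowest by 1.33-fold with the empty vector and 1.37-fold with SFB-Ku80. An equally long stretch of 18S, bases 991 to 1130, was also fairly level. It held 5766 to 7157 RPM with the empty vector and 15884 to 19145 with SFB-Ku80. Within 5.8S, the highest bin of the vector library was at bases 81 to 90, with 4531 RPM beside 15856 in SFB-Ku80. The highest of SFB-Ku80 was at 131 to 140, with 16285 beside 4395.

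The ratio of 5.8S increased towards its 3′ end. It was 3.27 in the first bin (counting interval 3.24 to 3.31), lay between 3.434 and 3.501 from base 11 to base 90 and reached 3.71 in the last bin (3.68 to 3.73). In consecutive windows of 50 bases it was 3.462, 3.501 and 3.687. The lowest ratio of 5.8S was above that of 168 of the 186 bins of 18S, and 5 bins of 18S exceeded its highest, those at bases 1 to 20, 1251 to 1260 and 1841 to 1860.

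The spacers beside 5.8S were not alike. On the 3′ side, the first bin of ITS2 held 1054 RPM with the empty vector and 4372 with SFB-Ku80, and the next 4 bins formed a shelf at 442 to 459 and 2666 to 2768 with ratios from 5.98 to 6.04. RefSeq gives 157 bases for 4 of the 5 RNA5-8SN genes and 156 for the other, against 150 labelled here. On the 5′ side, the last ITS1 bin held 208 and 534, a ratio of 2.56, whereas the bin before it held 52.8 and 265, a ratio of 5.03. The bin directly before 5.8S was thus the only one of the 10 bins within 50 bases of 5.8S with a ratio below that of 5.8S.

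**Figure D5:**
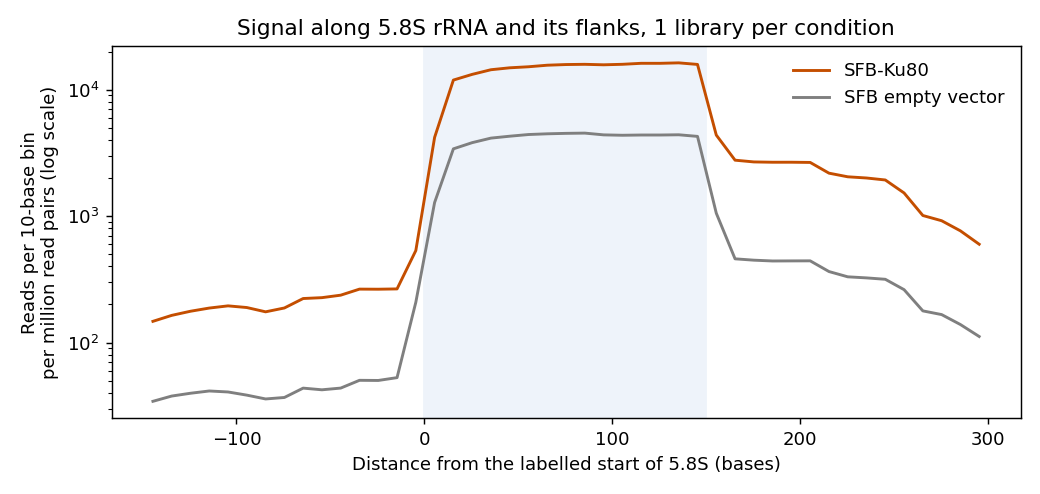
Reads per 10-base bin per 1000000 read pairs (RPM) on a log axis along 5.8S (shaded) and 150 bases on either side, against distance in bases from the labelled start of 5.8S, for SFB-Ku80 and SFB empty vector with 1 library each. Inside the shading both lines are flat after the first bin, near 16285 and 4531 at their highest, and the shelf of ITS2 to the right lies above the ITS1 signal to the left in both.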

How the data were processed

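PAR-CLIP libraries of HEK293T cells, 1 with the empty vector and 1 with SFB-Ku80, were compared. The authors deposited a signal, the number of reads that BLAST aligned over each 10-base bin of an rDNA repeat, with no scaling to depth. The BLAST version and limits and the rDNA sequence are not given in the sources used here. The authors also deposited counts of read pairs per feature from STAR, version 2.7.6a per the submitters' processing notes, on T2T-CHM13. Their sum, header rows included, gave the read pairs of each library. The featureCounts tables were not used.

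Bins were divided by read pairs, and ratios and 95% Clopper-Pearson counting intervals were computed with Python 3.11.15 and scipy 1.17.1. The 2 IGS bins present in 1 file were left out. Bins with at least 10 reads over both libraries formed the background, and for the ratio of a bin, vector counts below 3 were set to 3. The calculation of ratios was tested on simulated counts drawn independently for each bin, which does not cover reads shared between bins or PCR copies. Bins were named by extremes of signal and ratio, ends and local maxima of SFB-Ku80. The runs of neighbouring bins and the spacer bins at the borders were chosen after their values were seen. Members and tests were chosen with earlier results of these data known. With 1 library per condition no test across bins was possible. Cell identity and the tagged gene were not checked here. The STAR tables list features by ID alone, and only their totals were used.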

Additional observations from a re-analysis of the deposited data

How the results depend on the processing

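No paired analysis was possible because only 1 library stood for either condition. The signal of 18S and of 5.8S was higher in SFB-Ku80 under each setting run, but its size followed the denominator. With mapped read pairs the ratios were 4.14 and 5.28 and the median log2 ratio 2.06. With pairs assigned to features the values were 8.69, 11.1 and 3.13. Both denominators were a smaller share of the pairs in SFB-Ku80, so ratios on them are larger by arithmetic. Assigned pairs were 20.3% of the pairs with the empty vector and 6.51% with SFB-Ku80. With the rDNA signal the values were 1.22, 1.55 and 0.29, and 2 bins were past 2-fold. On read pairs, 47 bins passed a fold of 3. Median bins gave ratios of 2.76 and 3.59, a quotient of 5.8S over 18S of 1.30 and a highest over lowest window of 1.103. Without the highest bins the ratios were 2.785 and 3.55. Borders moved inwards by 1 bin gave 2.785 for 18S. Windows of 62 bins gave 1.03. Of the settings chosen after seeing the data, leaving out the last 3 bins of 18S gave 2.784 for 18S and 1.12 for the windows, and subtracting the flanking spacer signal gave 2.69 and 3.42. Beyond the arithmetic of the denominators, the causes of these shifts were not tested. Depth limited single bins little, since the lowest held 5209 reads, while the lack of replicates limits each comparison.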
